A study of Sus scrofa with 63 samples.

Results

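Sulfur mustard-exposed skin was compared with control skin 4 h after exposure, the earliest of the sampled times at which the labels score dermal necrosis. The comparison rests on 6 of the 63 arrays of the study, 3 of exposed and 3 of control skin, chosen by the time and treatment in the labels, and covers all 23999 probe sets that are not array controls. The study followed the abdominal skin of female Yorkshire crossbred pigs over 9 times after a dermal injury by sulfur mustard. At 4 h, exposed skin came from depilated sites on the ventral abdomen that had received 400 µL of neat sulfur mustard for 8 min. Control skin came from unexposed sites of the exposed animals, and 1 further array held skin of a sham animal that was prepared in the same way but received no agent. Lesions were 3 cm wide, biopsies were 8 mm punches of whole skin, and the age of the pigs is not given in the sources used here. Each of these animals carried both kinds of site, so a response that spread through an animal would also be present in its control skin. Dermal necrosis was scored 1 in each of the 3 exposed biopsies and 0 in the controls and the sham. Follicular damage was scored 1 in exposed replicate 1 and 0 in the other arrays of 4 h, and epidermal necrosis, vesicles and pustular epidermitis were scored 0 throughout. At 1 and 2 h all 5 scores were 0 in exposed skin, and at 24 h epidermal and dermal necrosis were both scored 4 in each exposed biopsy.

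Sulfur mustard is a bifunctional alkylating agent that cross-links DNA and modifies proteins and glutathione, and in skin it causes blisters after a latent period of hours. Injured cells first switch on immediate early genes, whose transcription needs no new protein synthesis. Feedback inhibitors, cytokines and chemokines follow and call in leukocytes, while DNA damage activates p53, which halts the cell cycle and can start cell death.

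The deposited values were log2 signals that the authors made with RMA, a method that corrects background, normalises arrays to a common distribution and summarises the probes of each probe set. All values below are on this log2 scale unless named as folds, and a level of one gene is not comparable with that of another. Exposed minus control was tested with limma over all 63 arrays, with Benjamini-Hochberg adjustment over the 23999 probe sets and a threshold of 0.05, two-sided. An array has no read depth, and with 3 arrays a group the number of arrays limits the precision. Medians of the 7 arrays of 4 h lay between 7.80 and 7.85. All 7 arrays shared the dates of RNA extraction, labelling and scanning. The p-values measure the spread between arrays within the exposed and control groups of all times, which may differ from that at 4 h. Of the 27 groups, those of sham skin held 1 array each and add nothing to this spread. Replicate 3 and the sham had another day of sacrifice than replicates 1 and 2, and exposed and control arrays of one number shared their day.

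Control replicate 2 stood apart from the other arrays of 4 h. The mean over 22 measured skeletal muscle genes was 13.2, 12.8 and 13.3 in exposed replicates 1 to 3, against 13.5, 9.10 and 13.2 in control replicates 1 to 3 and 11.3 in the sham. The 3 prime minus 5 prime difference for GAPDH, used as a measure of RNA integrity, was 0.061, 0.222 and 0.050 in exposed skin, against 0.031, 0.837 and 0.075 in control skin and 0.688 in the sham. Its order over the 7 arrays was the reverse of that of the muscle score, and whether it reflects RNA integrity or muscle content was not tested. The 3 prime minus 5 prime difference for actin and EF1A did not set control replicate 2 apart. For actin it was 1.01, 1.26 and 1.46 in exposed skin, against 1.13, 1.18 and 1.48 in control skin and 1.86 in the sham, and for EF1A it was 0.105, 0.142 and 0.15 in exposed skin, against 0.083, 0.112 and 0.074 in control skin and 0.127 in the sham. Markers of skin were present throughout, with means over the 7 arrays between 11.35 and 11.93 for 6 keratinocyte genes and between 11.78 and 12.22 for 16 fibroblast and dermal matrix genes. The muscle score of exposed minus control arrays differed by 1.14 (exact permutation test, two-sided, p = 0.8, where 0.1 is the smallest possible with 3 against 3 arrays). With the muscle score as a covariate, 98 of the 100 higher and 25 of the 29 lower genes described next kept their call. In whole-skin samples, fewer cells of a type and less RNA per cell cannot be told apart.

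At 4 h after exposure more probe sets were higher than lower in exposed skin. Of 23999 probe sets, 266 were higher in exposed than in control skin (1.11%) and 82 were lower (0.342%), and the median over all probe sets was -0.015. Among the higher probe sets 108 differed at least 2-fold, and among the lower 2 did. On 1 probe set per gene, 100 of 6765 genes were higher (1.48%) and 29 were lower (0.429%), with median differences of 0.94 and -0.45. In 99 of the 100 higher genes the 3 exposed arrays lay above the 3 controls, and in all 29 lower genes below them, but these genes were chosen by the same difference. Over all 6765 genes, the exposed arrays lay wholly above the controls in 5.77% and wholly below them in 6.62%. With the replicate number as a block, 375 probe sets were higher and 231 lower, and the genes came to 143 higher (2.11%) and 68 lower (1.01%). The blocked calls held 99 of the 100 higher genes and all 29 lower genes.

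**Figure D1:**
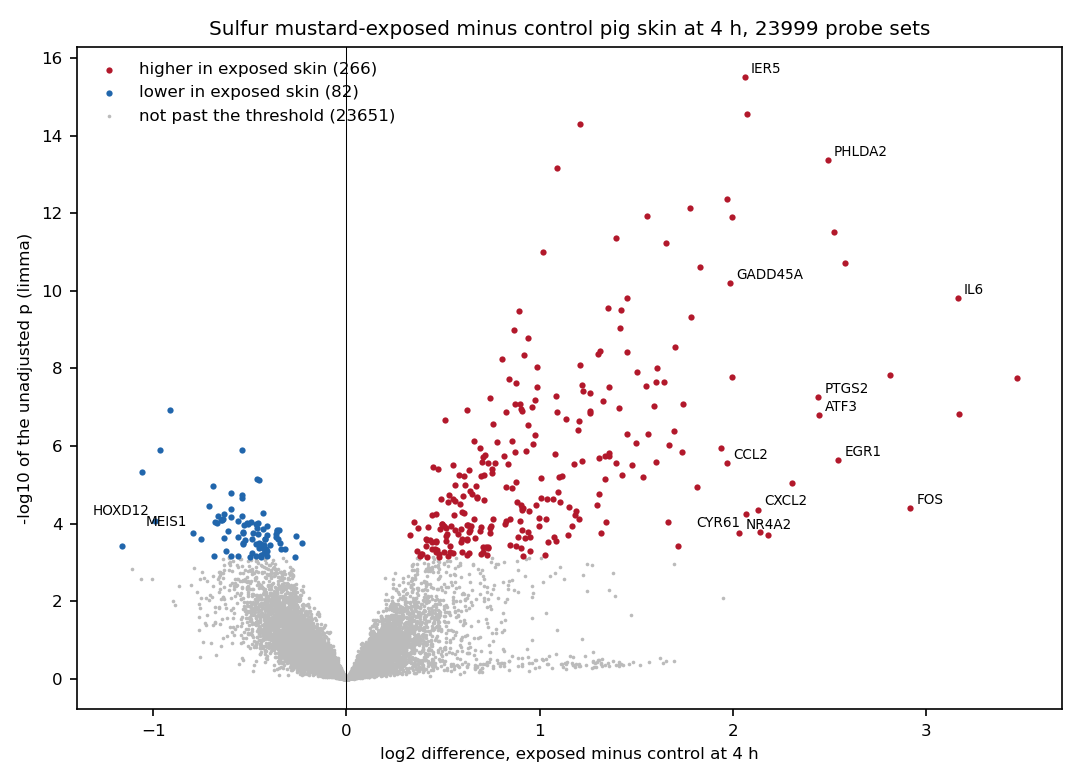
Log2 difference (exposed minus control at 4 h, x axis) and -log10 of the unadjusted limma p (y axis) of 23999 probe sets. The 266 higher probe sets (red) reach past 3 on the log2 scale, while the 82 lower ones (blue) lie mostly between -1 and 0. Named are the 12 genes with the largest rises and the 2 with the largest falls.

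Single arrays moved these counts unevenly. Without control replicate 2 there were 198 higher and 20 lower probe sets, and 72 of the 100 higher and 5 of the 29 lower genes kept their call. Without control replicate 1 there were 283 higher and 315 lower probe sets, and 86 higher and 24 lower genes kept their call. Without exposed replicate 1 or control replicate 3 the lower probe sets numbered 28 or 39. Whichever of the 6 arrays was left out, 54 higher genes and 1 lower gene, NCOA1, stayed past the threshold. Fitted on the 7 arrays of 4 h alone, 59 probe sets were higher and 1 was lower, and 26 of the 100 higher genes and 0 of the 29 lower genes kept their call. No called gene changed its sign in any of these fits.

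On 1 probe set per gene the largest rise was that of IL6, the cytokine interleukin-6 that drives fever and the acute phase response. IL6 (probe set Ssc.62.2.S1_a_at) had log2 signals of 9.39, 9.76 and 8.83 in exposed skin, against 6.16, 6.34 and 5.98 in control skin and 6.00 in the sham, an 8.96-fold difference (log2 difference 3.16, SE 0.37, adjusted p = 2.08e-07). Every exposed array lay more than 2 log2 units above every control array. The control signals were dim and the deposited values carry no detection call. Whether IL6, or PTGS2 and AREG below, was above background in control skin is therefore not known. FOS, the partner of JUN in the transcription factor AP-1, followed with 12.39, 12.42 and 12.32 in exposed skin, against 9.02, 9.69 and 9.66 in control skin (log2 difference 2.92, SE 0.63, adjusted p = 0.0056). EGR1, a zinc finger factor switched on by growth and stress signals, measured 10.77, 11.32 and 11.29 in exposed skin, against 8.57, 8.70 and 8.47 in control skin (log2 difference 2.54, SE 0.46, adjusted p = 0.000534). The other 2 EGR1 probe sets differed by 2.14 and 2.18 and both passed the threshold.

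PHLDA2, a small pleckstrin homology protein known best as an imprinted brake on placental growth, stood at 11.41, 11.60 and 12.00 in exposed skin, against 9.08, 9.47 and 8.99 in control skin (log2 difference 2.49, SE 0.22, adjusted p = 2.6e-10). ATF3, a stress-induced factor of the ATF/CREB family, had 9.86, 9.80 and 9.90 in exposed skin, against 7.77, 7.22 and 7.24 in control skin (log2 difference 2.44, SE 0.38, adjusted p = 5.59e-05). The 3 exposed values of ATF3 were nearly equal, and the controls lay at least 2.03 below them. PTGS2 encodes cyclooxygenase-2, the inducible enzyme of prostaglandin synthesis. It spread more widely, with 7.38, 9.16 and 8.26 in exposed skin, against 5.60, 6.25 and 5.63 in control skin (log2 difference 2.44, SE 0.36, adjusted p = 2.62e-05), and exposed replicate 1 was the lowest of its group.

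Both CXCL2, a neutrophil chemokine, and CCL2, a monocyte chemokine, belonged to the 12 largest rises. CXCL2 had 10.22, 10.30 and 9.64 in exposed skin, against 7.83, 8.24 and 7.70 in control skin (log2 difference 2.13, SE 0.46, adjusted p = 0.00602). CCL2 measured 11.98, 12.54 and 12.16 in exposed skin, against 9.74, 10.54 and 10.48 in control skin (log2 difference 1.97, SE 0.36, adjusted p = 0.00061). CYR61, a secreted matricellular protein of the CCN family, was at 10.82, 12.12 and 11.84 in exposed skin, against 9.71, 9.42 and 9.43 in control skin (log2 difference 2.07, SE 0.46, adjusted p = 0.0076), with exposed replicate 1 again the lowest. Its call was lost without exposed replicate 2 or 3.

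IER5, an immediate early protein that modulates the heat shock response, was the gene with the smallest adjusted p. Its arrays read 11.23, 11.58 and 11.41 in exposed skin, against 9.28, 9.40 and 9.36 in control skin (log2 difference 2.06, SE 0.15, adjusted p = 7.48e-12), so its groups were separated by many times their spread. A further IER5 probe set rose by 1.41 and a dim one differed by 0.047 and did not pass. GADD45A, a p53-inducible stress sensor that slows the cell cycle, had 11.93, 11.98 and 11.64 in exposed skin, against 10.02, 9.93 and 9.64 in control skin (log2 difference 1.99, SE 0.22, adjusted p = 9.53e-08). NR4A2, an orphan nuclear receptor of the immediate early class, had 9.11, 9.61 and 8.64 in exposed skin, against 8.20, 6.58 and 6.47 in control skin (log2 difference 2.03, SE 0.49, adjusted p = 0.0168). Control replicate 1 of NR4A2 lay close to the exposed arrays, and the call was lost without exposed replicate 1 or 2 or control replicate 2 or 3. Of the 12 genes, 9 also passed in the fit of the 4 h arrays alone, and PTGS2, CYR61 and NR4A2 did not (adjusted p = 0.142, 0.101 and 0.299).

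**Figure D2:**
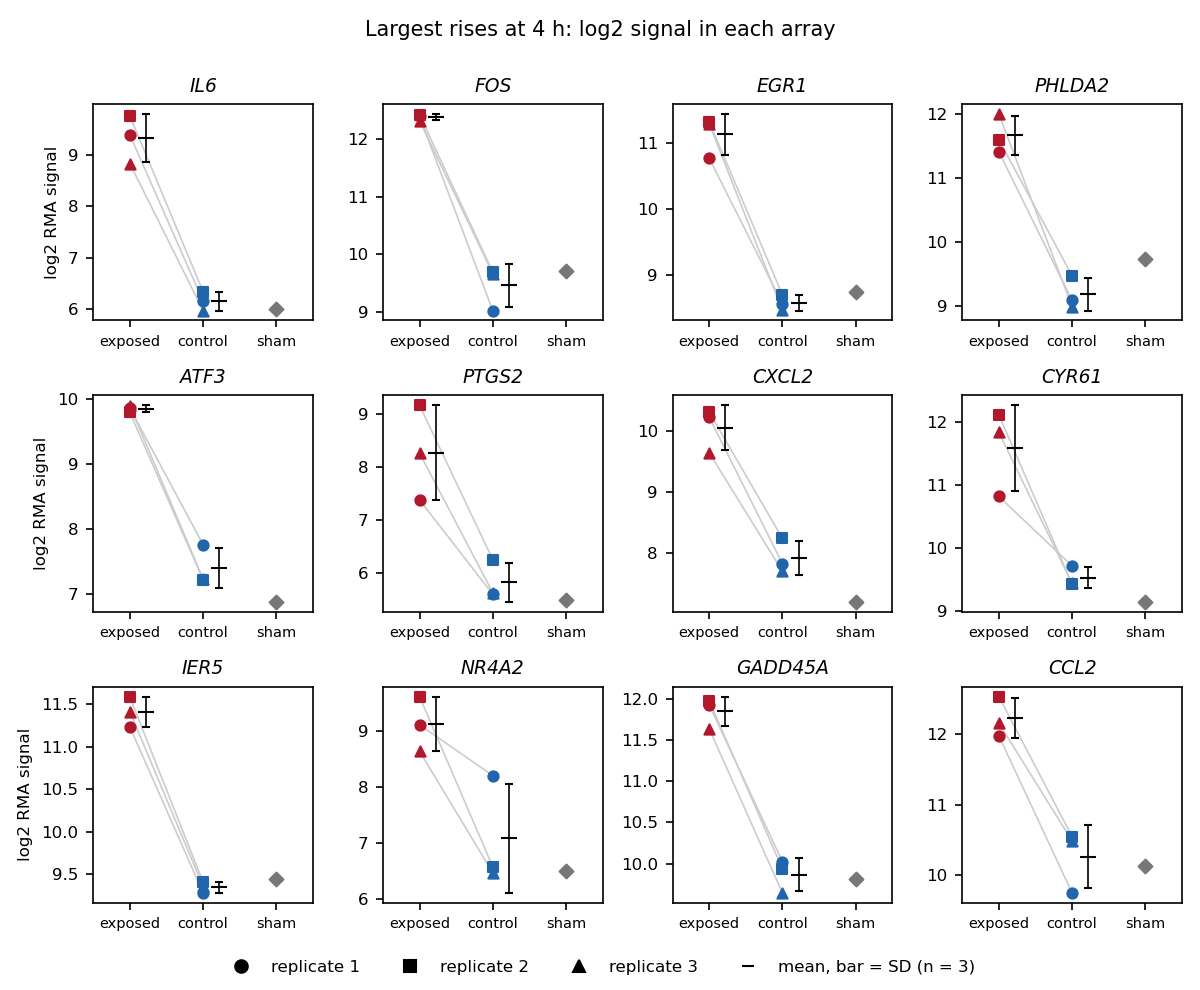
Log2 signal of the 12 genes with the largest rises in each exposed, control and sham array of 4 h, with one scale per gene. Symbols mark the replicate number, grey lines join same-numbered arrays, and bars give the mean and SD of 3 arrays. In each of the 12 panels all exposed arrays lie above all control arrays, most narrowly for NR4A2.

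Over all 6765 genes 1.48% were higher and 0.429% lower, and the counts in the lists below are to be read beside these shares. The median difference over these genes was -0.015, so more of them lay below 0 than above it. Of the immediate early transcription factors, 9 of 14 measured genes rose, 0 fell and 5 did not pass, and their median difference was 1.12. Beside FOS, EGR1, ATF3 and NR4A2 these were MYC, JUN, IER2, KLF4 and FOSL1. MYC, which drives growth and ribosome production, differed by 1.66 (adjusted p = 1.18e-08). JUN, the other AP-1 subunit, differed by 1.04 (adjusted p = 0.0244) and lost its call without exposed replicate 1, 2 or 3 or control replicate 2 or 3. FOSL1, a further AP-1 member, differed by 0.48 (adjusted p = 0.0143) and KLF4, a factor of keratinocyte differentiation, by 0.64 (adjusted p = 0.0127). Their calls were lost without exposed replicate 1 or control replicate 2 for FOSL1 and exposed replicate 2 or 3 or control replicate 1 for KLF4. IER2, another early response gene, differed by 1.20 (adjusted p = 0.000124). NR4A3, a close relative of NR4A2, differed by 1.70, with an adjusted p of 0.0669, and with the block of 0.0453. KLF2 measured -0.043 and was the only member below 0. Without control replicate 2, 6 of the 14 passed, with a median of 1.17.

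Feedback inhibitors of signalling and mRNA decay rose in 7 of 13 measured genes, with 0 lower and a median of 0.91. IER3, a survival factor induced by NF-kB, had 11.16, 11.59 and 11.48 in exposed skin, against 9.30, 9.94 and 9.76 in control skin (log2 difference 1.74, SE 0.27, adjusted p = 3.59e-05). ZFP36 encodes tristetraprolin, which destroys AU-rich cytokine mRNAs such as that of TNF. Its signals were 11.60, 11.83 and 11.72 in exposed skin, against 9.92, 10.53 and 10.02 in control skin (log2 difference 1.56, SE 0.26, adjusted p = 0.000151). BTG2, an antiproliferative p53 target that promotes deadenylation, differed by 1.66 (adjusted p = 0.0107) and lost its call without exposed replicate 2 or control replicate 3. IER5, described above as a modulator of the heat shock response, was also counted in this list. The remaining 3 were NFKBIA, DUSP6 and SOCS1. NFKBIA, the inhibitor that holds NF-kB in the cytoplasm, differed by 0.94 (adjusted p = 0.00662). DUSP6, an ERK phosphatase, differed by 0.91 (adjusted p = 0.0147) and SOCS1, an inhibitor of JAK kinases, by 0.59 (adjusted p = 0.0251). Calls were lost without exposed replicate 2 for NFKBIA, exposed replicate 2 or control replicate 3 for DUSP6 and exposed replicate 2 or 3 or control replicate 1 or 2 for SOCS1, so that 3 of the 13 passed without exposed replicate 2. DUSP1, another MAP kinase phosphatase, differed by 1.05, past the threshold with the block (adjusted p = 0.0187) and not without it (0.0997). SOCS3, TNIP1, RGS1 and BTG1 all differed by at most 0.22.

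Of 25 measured chemokine and receptor genes, 2 rose at 4 h (CXCL2 and CCL2), 0 fell and the median was 0.094. With the block 4 were higher, the others being CXCL8 and CCL8. Over all 6765 genes 1.48% were higher, and 2.11% with the block. CXCL8, or interleukin-8, the main neutrophil attractant of pig and human skin, had 7.33, 6.55 and 6.12 in exposed skin, against 4.53, 4.68 and 4.95 in control skin. Its control signals lay near the lowest value among all arrays, 4.05, and the deposited values carry no detection call, so whether CXCL8 was above background in control skin is not known. The groups did not overlap, but the difference of 1.95 had an SE of 0.70 and an adjusted p of 0.222, against 0.0306 with the block. CCL8, a monocyte chemokine, differed by 1.36 (adjusted p = 0.172, with the block 0.0402). Of the constitutive skin chemokines, CCL27 measured -0.065 and CXCL14 0.039, neither past the threshold.

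Among 25 cytokines and their receptors IL6 and TNFRSF12A rose, IL7 fell, and the median was 0.11. TNFRSF12A, the receptor of the cytokine TWEAK, had 10.62, 10.64 and 10.45 in exposed skin, against 10.00, 9.83 and 10.01 in control skin (log2 difference 0.62, SE 0.16, adjusted p = 0.0232). Its second probe set rose by 1.09, and the first lost its call without exposed replicate 1 or 2 or control replicate 2 or 3. IL1B, TNF and IL1A, the classic initiating cytokines, differed by 0.64, 0.46 and 0.35 and did not pass (adjusted p = 0.868, 0.0713 and 0.965). In the group of eicosanoid and acute inflammatory mediators 1 of 12 rose, PTGS2, with a median of 0.12. Blocked, PTX3 and TNFAIP6 passed as well, a soluble pattern receptor and a hyaluronan-binding protein, with differences of 1.24 and 0.89 (blocked adjusted p = 0.00807 and 0.0434). PTGES, the inducible prostaglandin E synthase, measured -0.0083 beside the rise of PTGS2, and PTGS1, the constitutive cyclooxygenase, -0.20.

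Genes of endothelial activation, adhesion and coagulation rose in 3 of 23 measured members, with 0 lower and a median of 0.064. SELE encodes E-selectin, made by activated endothelium to let leukocytes roll. It stood at 8.42, 8.51 and 8.25 in exposed skin, against 6.18, 7.01 and 6.91 in control skin (log2 difference 1.70, SE 0.28, adjusted p = 0.000133). ICAM1, the ligand of leukocyte integrins, had 10.39, 11.40 and 10.63 in exposed skin, against 8.93, 9.69 and 9.36 in control skin (log2 difference 1.48, SE 0.27, adjusted p = 0.000654). PLAU, the urokinase plasminogen activator, had 11.69, 12.30 and 11.43 in exposed skin, against 10.36, 10.83 and 10.45 in control skin (log2 difference 1.26, SE 0.20, adjusted p = 4.76e-05). All 3 kept their call whichever array was left out, but in the fit of the 4 h arrays alone none passed (adjusted p = 0.0567, 0.207 and 0.176). SELP, or P-selectin, differed by 0.43 (adjusted p = 0.334, blocked 0.0486) and passed with the block alone. VCAM1 measured 0.039 and F3, tissue factor, 0.42, neither past the threshold. The endothelial markers PECAM1, CDH5 and VWF measured -0.23, -0.16 and -0.19, and 0 of 12 measured endothelial markers passed, while 11 of them were below 0.

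Matricellular proteins, proteases and their inhibitors held 3 rises among 26 measured genes (CYR61, THBS1 and ADAMTS1), with 0 lower and a median of 0.029. THBS1 encodes thrombospondin-1, an antiangiogenic glycoprotein that activates TGF-beta. Its signals were 11.33, 12.01 and 11.48 in exposed skin, against 9.03, 10.61 and 9.36 in control skin (log2 difference 1.94, SE 0.34, adjusted p = 0.000315), and without control replicate 2, the highest control, the difference was 2.41. Of the other 4 THBS1 probe sets 2 rose, by 3.17 and 2.31, and the 2 dimmer ones differed by 0.54 and 0.49 and did not pass. ADAMTS1, a secreted metalloproteinase, had 11.17, 11.37 and 11.40 in exposed skin, against 10.02, 9.78 and 10.37 in control skin (log2 difference 1.26, SE 0.20, adjusted p = 5.11e-05), and its second probe set rose by 1.36. The collagenase MMP1 and the gelatinase MMP9 measured 0.42 and 0.01, and TIMP1, an inhibitor of such proteases, 0.61 (adjusted p = 0.238). TNC, the wound protein tenascin-C, was at 7.56, 8.14 and 8.11 in exposed skin, against 7.42, 8.07 and 7.99 in control skin, with overlapping groups.

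In the list of p53 targets 5 of 18 measured genes rose and 0 fell, with a median of 0.091. BTG2 and SFN, which p53 also induces, were counted in other lists. CDKN1A, the cyclin-dependent kinase inhibitor p21, had 11.47, 11.18 and 11.10 in exposed skin, against 10.15, 9.78 and 9.76 in control skin (log2 difference 1.35, SE 0.16, adjusted p = 3.55e-07). The 3 same-numbered differences of CDKN1A were nearly equal, at 1.32, 1.397 and 1.34. PMAIP1, the proapoptotic BH3 protein NOXA, had 9.59, 9.82 and 9.45 in exposed skin, against 7.45, 8.14 and 8.05 in control skin (log2 difference 1.74, SE 0.31, adjusted p = 0.000372). PLK2, a polo-like kinase of the stress checkpoint, had 9.98, 10.05 and 10.30 in exposed skin, against 8.38, 9.09 and 8.78 in control skin (log2 difference 1.36, SE 0.20, adjusted p = 1.57e-05). The others were GADD45A and PHLDA3, a repressor of AKT, which differed by 0.45 (adjusted p = 0.0339) and lost its call without exposed replicate 1 or 3 or control replicate 1 or 2. Further p53 targets measured 0.085 for BAX, -0.063 for FAS, 0.052 for CCNG1, -0.11 for SESN1, -0.17 for XPC and -0.32 for DDB2, none past the threshold. CDKN1A, PMAIP1 and GADD45A passed in the fit of the 4 h arrays alone.

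Of 26 measured genes of DNA damage sensing and repair 1 rose and 1 fell, with a median of -0.10. PCNA, the sliding clamp of replication and repair, had 9.53, 9.40 and 9.79 in exposed skin, against 8.99, 8.60 and 8.89 in control skin (log2 difference 0.75, SE 0.14, adjusted p = 0.000808). FANCF, a subunit of the Fanconi anaemia complex that acts on DNA cross-links, had 7.86, 7.85 and 7.92 in exposed skin, against 8.31, 8.28 and 8.50 in control skin (log2 difference -0.49, SE 0.12, adjusted p = 0.0172). Its other 2 probe sets differed by -0.15 and -0.063 without passing, and the call was lost without exposed replicate 1 or 2 or control replicate 3. FANCD2, FANCA and FANCG, of the same pathway, measured 0.023, -0.075 and -0.19, and XPA and ERCC1 of nucleotide excision repair -0.10 and -0.10. In the cell cycle list 1 of 30 measured genes rose and 1 fell, with a median of -0.035. CKS2, a small cofactor of cyclin-dependent kinases, had 9.78, 9.44 and 9.53 in exposed skin, against 9.17, 8.46 and 8.84 in control skin (log2 difference 0.76, SE 0.17, adjusted p = 0.00945), and lost its call without exposed replicate 1 or control replicate 2. CDC25B, the phosphatase that starts entry into mitosis, had 8.96, 8.75 and 9.10 in exposed skin, against 9.36, 9.33 and 9.73 in control skin (log2 difference -0.53, SE 0.13, adjusted p = 0.0166), and lost it without exposed replicate 1 or 2 or control replicate 3. Of 16 measured genes of apoptosis and survival 0 passed (median -0.030), and the one with the smallest p, CFLAR, a caspase-8 inhibitor, measured -0.34 (adjusted p = 0.448). Its second probe set differed by 0.004 without passing.

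Heat shock proteins and co-chaperones rose in 4 of 26 measured genes, with 0 lower and a median of 0.12. HSPA6, a strictly inducible HSP70, had 9.35, 8.47 and 8.86 in exposed skin, against 8.04, 7.64 and 7.57 in control skin (log2 difference 1.15, SE 0.28, adjusted p = 0.0183), and lost its call without exposed replicate 1 or 3 or control replicate 2 or 3. HSP70.2, the pig name of the main inducible HSP70, had 12.09, 11.66 and 12.06 in exposed skin, against 11.01, 11.14 and 11.19 in control skin (log2 difference 0.83, SE 0.16, adjusted p = 0.002). Its other probe sets differed by 0.90, past the threshold, and 0.83, not past it. DNAJB1, the HSP40 partner of HSP70, had 11.06, 10.48 and 10.54 in exposed skin, against 9.97, 10.08 and 9.92 in control skin (log2 difference 0.70, SE 0.13, adjusted p = 0.000609). HSPA8, the constitutive HSP70, differed by 0.88 (adjusted p = 0.00151), but its 3 dimmer probe sets measured -0.14, -0.17 and -0.10, and the call was lost without exposed replicate 1 or control replicate 2. HSP70 genes are alike in sequence, so their probe sets may share signal. With the block HSPH1 and DNAJA1, both of them partners of HSP70, passed too, with differences of 1.02 and 0.88 (blocked adjusted p = 0.00265 and 0.000154). The mitochondrial HSPD1 and the small heat shock protein HSPB1 measured 0.10 and 0.047.

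The unfolded protein and integrated stress response had 2 rises among 22 measured genes, 0 falls and a median of 0.18. PPP1R15A, or GADD34, which lets translation restart by dephosphorylating eIF2-alpha, had 9.93, 10.36 and 9.93 in exposed skin, against 8.95, 9.25 and 8.52 in control skin (log2 difference 1.17, SE 0.27, adjusted p = 0.0124), and lost its call without exposed replicate 2 or control replicate 3. HSPA5, or BiP, the chaperone of the endoplasmic reticulum, had 12.58, 12.43 and 12.40 in exposed skin, against 11.67, 11.88 and 11.83 in control skin (log2 difference 0.68, SE 0.14, adjusted p = 0.00336). With the block 4 passed, CEBPD and XBP1 being the others, with 0.78 and 0.33 (blocked adjusted p = 0.00909 and 0.0462). ATF4 and DDIT3, the central factors of the integrated stress response, differed by 0.39 and 0.56 and did not pass (adjusted p = 0.45 and 0.341). Of 27 oxidative stress genes and metallothioneins 0 passed, with the block as without it. Their median was 0.099, and HMOX1 and NQO1, the standard targets of the sensor NRF2, measured 0.29 and 0.18, GCLM 0.0051 and MT1A 0.21 (adjusted p = 0.869, 0.9996, 0.9996 and 0.968). PRDX1, a peroxide-reducing enzyme, had the smallest p of this list (difference 0.22, adjusted p = 0.536).

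In the list of hypoxia and glycolysis 1 of 21 measured genes rose, with a median of -0.050. SLC2A3, the glucose transporter GLUT3, had 10.44, 10.80 and 10.53 in exposed skin, against 8.36, 8.97 and 9.01 in control skin (log2 difference 1.81, SE 0.36, adjusted p = 0.002). ADM, the vasodilating peptide adrenomedullin, differed by 0.94 (adjusted p = 0.0523, blocked 0.00541) and passed with the block alone. VEGFA and CA9, both classic hypoxia targets, measured -0.076 and 0.052.

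Growth factors and receptors held 1 rise among 29 measured genes, with a median of -0.030. AREG encodes amphiregulin, a ligand of the EGF receptor made by keratinocytes. It had 7.05, 7.23 and 7.60 in exposed skin, against 5.81, 6.19 and 5.87 in control skin (log2 difference 1.34, SE 0.24, adjusted p = 0.000444), and kept its call whichever array was left out but not in the fit of the 4 h arrays alone (adjusted p = 0.0532). HBEGF, another such ligand, differed by 0.79 without passing (adjusted p = 0.225). FGFR2, the receptor of keratinocyte growth factor, passed with the block alone, at -0.72 (adjusted p = 0.124, blocked 0.0273).

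Of 10 measured genes of differentiated keratinocytes 1 rose, with a median of -0.13. CLDN4, a tight junction protein, had 10.18, 10.14 and 10.30 in exposed skin, against 9.17, 9.96 and 9.38 in control skin (log2 difference 0.71, SE 0.19, adjusted p = 0.0401), and lost its call without exposed replicate 1, 2 or 3 or control replicate 1 or 3. Control replicate 2 was the highest control for CLDN4, and without it the difference was 0.93. Involucrin (IVL), a cornified envelope precursor, differed by 1.01 (adjusted p = 0.0511, blocked 0.0177). KRT1 had 13.68, 13.54 and 13.91 in exposed skin, against 13.62, 14.05 and 13.87 in control skin and KRT10 13.83, 13.73 and 13.97 in exposed skin, against 13.84, 14.16 and 13.88 in control skin, both with overlapping groups. Of 7 measured basal keratinocyte genes 0 passed, DST (bullous pemphigoid antigen 1, which anchors keratin filaments) having the smallest p (difference -0.32, adjusted p = 0.516). The other, dimmer DST probe sets differed by -0.14 and 0.12 without passing. ITGA6 and COL17A1, also of the basal attachment, measured 0.063 and 0.017. Of 11 genes of activated keratinocytes 0 passed, with SERPINB1, an inhibitor of neutrophil proteases, at 0.32 (adjusted p = 0.768). SFN, or 14-3-3 sigma, a p53 target of epithelia, was the 1 of 6 keratinocyte markers that rose, with 11.81, 11.67 and 12.36 in exposed skin, against 10.78, 11.35 and 11.18 in control skin (log2 difference 0.84, SE 0.22, adjusted p = 0.0293), and lost its call without exposed replicate 1 or 3 or control replicate 1 or 3.

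Of 22 measured developmental transcription factors of skin 4 rose and 0 fell, with a median of 0.10. ID1 and ID2 encode dominant inhibitors of helix-loop-helix factors. They differed by 0.72 (adjusted p = 0.0312) and 0.63 (adjusted p = 0.0119). SNAI1, a repressor of E-cadherin, had 7.59, 7.70 and 7.38 in exposed skin, against 6.79, 6.64 and 6.55 in control skin (log2 difference 0.90, SE 0.20, adjusted p = 0.0103), while its second probe set differed by 0.22 without passing. DLX5, a homeobox factor, had 7.84, 7.86 and 8.91 in exposed skin, against 7.01, 7.26 and 7.25 in control skin (log2 difference 1.03, SE 0.28, adjusted p = 0.0452), with exposed replicate 3 the highest and the sham at 7.76, close to exposed replicates 1 and 2. Calls were lost without exposed replicate 1, 2 or 3 or control replicate 2 or 3 for ID1, exposed replicate 2 for ID2, exposed replicate 2 or control replicate 2 or 3 for SNAI1 and exposed replicate 3 or control replicate 1, 2 or 3 for DLX5, and without control replicate 2 only 1 of the 22 passed. Of 6 circadian genes NFIL3, a repressor of D-box promoters that cytokines also induce, rose (10.99, 11.49 and 11.03 in exposed skin, against 9.85, 10.24 and 9.52 in control skin, log2 difference 1.30, SE 0.28, adjusted p = 0.00479). Its call was lost without exposed replicate 2 or control replicate 3. ARNTL, the clock factor BMAL1, passed with the block alone, at -0.75 (adjusted p = 0.0878, blocked 0.00084). Among 11 glucocorticoid-responsive genes 0 passed, and SGK1, a serum- and glucocorticoid-induced kinase, passed with the block, at 0.58 (adjusted p = 0.153, blocked 0.029), while FKBP5 and TSC22D3 measured -0.27 and -0.013.

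**Figure D3:**
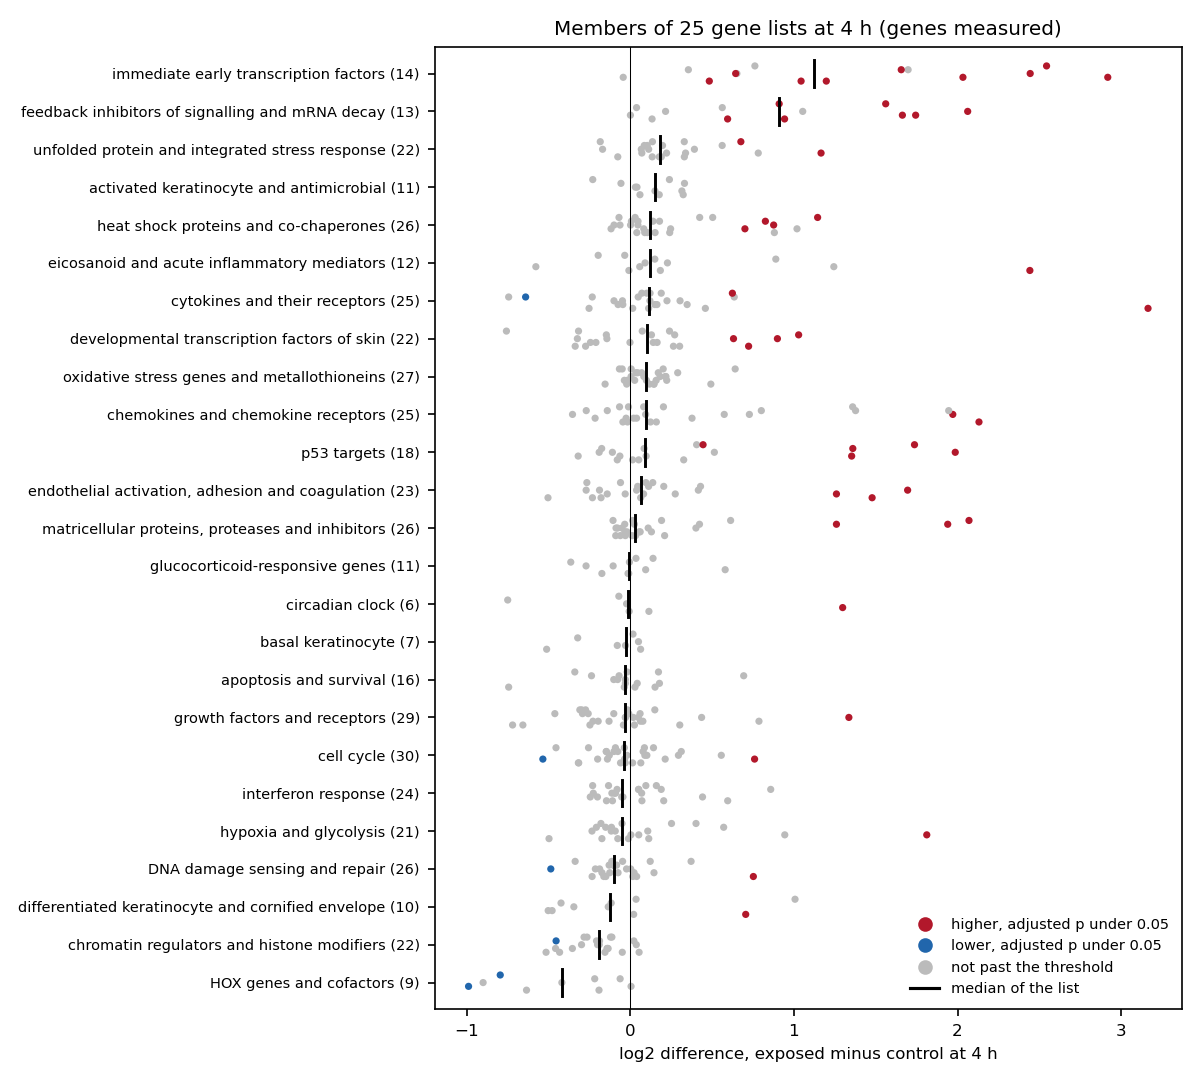
Log2 difference (exposed minus control at 4 h, x axis) of each measured gene of 25 lists, with the number measured in brackets. Red points are higher and blue points lower at an adjusted p under 0.05, grey points did not pass, and black bars are list medians. The immediate early and feedback lists have medians of 1.12 and 0.91, and the list of HOX genes and cofactors -0.42.

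Falls were smaller than rises, and 0 of the 29 lower genes changed 2-fold. The largest were those of HOXD12, a homeobox gene that patterns the distal limb, and MEIS1, a cofactor of HOX proteins. HOXD12 had 6.30, 6.62 and 6.63 in exposed skin, against 6.90, 7.74 and 7.88 in control skin (log2 difference -0.99, SE 0.23, adjusted p = 0.0103), and its dimmer probe set differed by -0.14 without passing. MEIS1 had 8.61, 8.92 and 8.82 in exposed skin, against 9.24, 9.81 and 9.68 in control skin (log2 difference -0.79, SE 0.19, adjusted p = 0.0168), and its second probe set differed by -0.45 without passing. In both, control replicate 1 was the lowest control and nearest to exposed skin. Of 9 measured HOX genes and cofactors 2 fell, 8 were below 0 and the median was -0.42. With the block HOXB7 and MEIS2 also passed (-0.42 and -0.63, blocked adjusted p = 0.0367 and 0.00652), and HOXA9 measured -0.90 (adjusted p = 0.243). Without control replicate 2, 0 of the 9 passed, with a median of -0.44, HOXD12 then at -0.87 (adjusted p = 0.101) and MEIS1 at -0.68 (adjusted p = 0.162). HOXD12 also lost its call without exposed replicate 1 or control replicate 3, and MEIS1 without exposed replicate 1 or 3 or control replicate 3.

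BMPR1B, a type I BMP receptor, had 6.79, 6.47 and 6.75 in exposed skin, against 7.46, 7.42 and 7.18 in control skin (log2 difference -0.68, SE 0.18, adjusted p = 0.0475), but its other 2 probe sets measured 0.021 and -0.026, and its call was lost whichever of the 6 arrays was left out. SMAD1, which carries the BMP signal to the nucleus, had 9.94, 10.17 and 10.03 in exposed skin, against 10.46, 10.56 and 10.59 in control skin (log2 difference -0.49, SE 0.13, adjusted p = 0.041). IL7, a lymphocyte growth factor that keratinocytes make, had 5.44, 5.41 and 5.39 in exposed skin, against 5.84, 6.33 and 5.99 in control skin (log2 difference -0.64, SE 0.14, adjusted p = 0.0096). The exposed values of IL7 were nearly equal, and the call was lost without control replicate 2, the highest control. These signals were dim and carry no detection call, so whether IL7 was above background in exposed skin is not known. RUNX1T1, a transcriptional corepressor, had 8.52, 8.83 and 8.65 in exposed skin, against 9.21, 9.49 and 9.31 in control skin (log2 difference -0.67, SE 0.15, adjusted p = 0.0111). BCL11A, a zinc finger repressor known for silencing fetal globin, had 7.30, 7.50 and 7.32 in exposed skin, against 7.67, 8.28 and 8.04 in control skin (log2 difference -0.62, SE 0.16, adjusted p = 0.0383). SSBP2, a cofactor of LIM domain complexes, had 8.08, 8.33 and 8.35 in exposed skin, against 8.75, 8.92 and 8.88 in control skin (log2 difference -0.60, SE 0.16, adjusted p = 0.0483).

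Beside CDC25B, the remaining large falls were of 1 noncoding and 2 coding genes. LOC100152407, a long noncoding RNA in RefSeq, had 9.23, 9.33 and 9.53 in exposed skin, against 9.88, 9.97 and 10.03 in control skin (log2 difference -0.60, SE 0.13, adjusted p = 0.00582), the smallest adjusted p of the 12 largest falls. GPHN, or gephyrin, a scaffold of inhibitory synapses and an enzyme of molybdenum cofactor synthesis, had 8.00, 8.21 and 8.34 in exposed skin, against 8.62, 8.78 and 8.70 in control skin (log2 difference -0.52, SE 0.12, adjusted p = 0.0111). STIM2, a calcium sensor of the endoplasmic reticulum, had 8.23, 8.34 and 8.18 in exposed skin, against 8.48, 9.12 and 8.66 in control skin (log2 difference -0.50, SE 0.14, adjusted p = 0.0492). Calls were lost without exposed replicate 1 or 3 or control replicate 2 or 3 for SMAD1, exposed replicate 1 or control replicate 2 for RUNX1T1, exposed replicate 1, 2 or 3 or control replicate 2 or 3 for BCL11A, exposed replicate 1, 2 or 3 or control replicate 2 or 3 for SSBP2 and for STIM2, exposed replicate 1 for LOC100152407 and exposed replicate 1 or control replicate 2 for GPHN. The 12 falls had adjusted p values above 0.1 in the fit of the 4 h arrays alone.

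**Figure D4:**
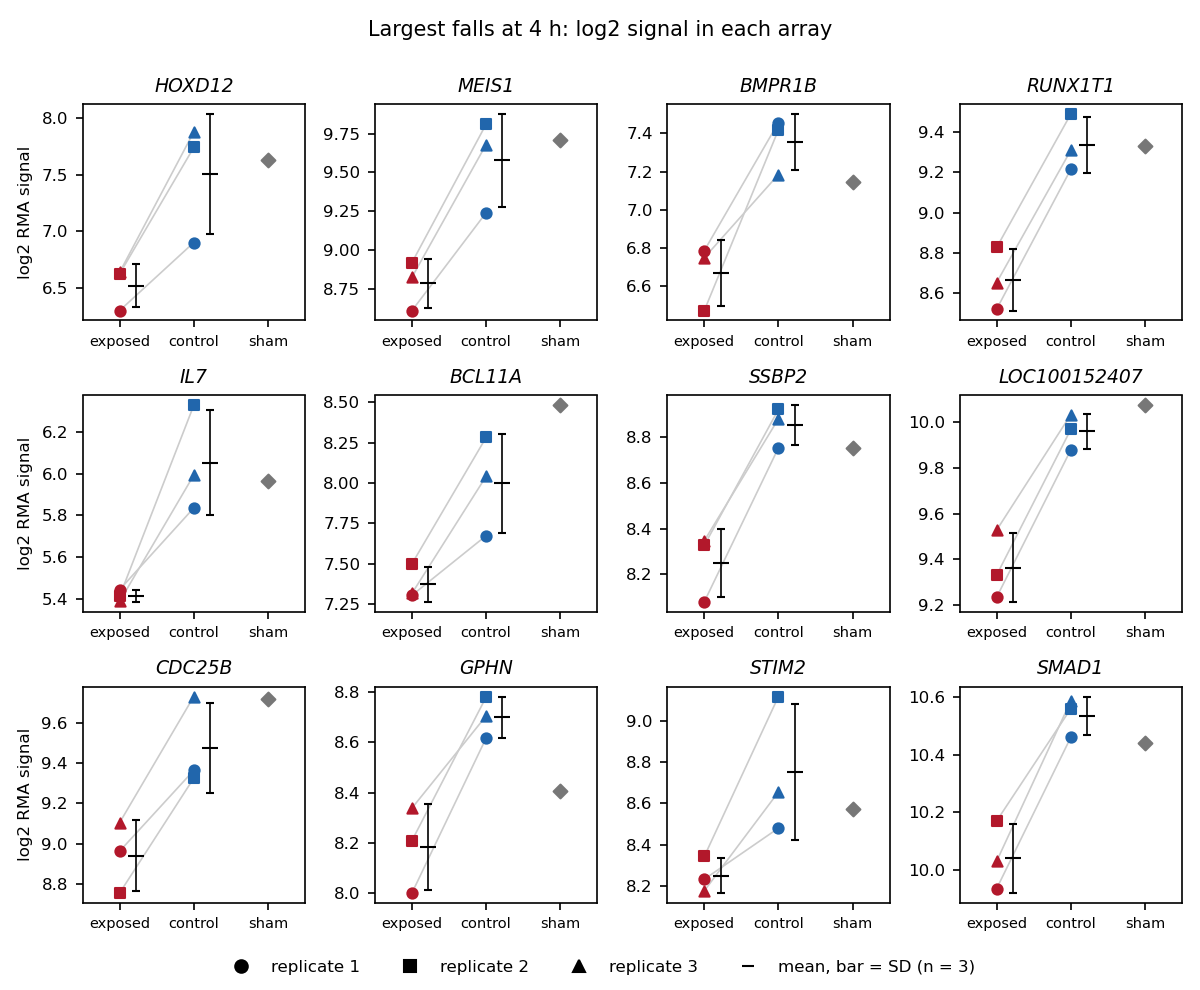
Log2 signal of the 12 genes with the largest falls in each exposed, control and sham array of 4 h, with one scale per gene. Symbols mark the replicate number, grey lines join same-numbered arrays, and bars give the mean and SD of 3 arrays. The exposed arrays lie below all control arrays in each panel, with a gap of at most 0.405 between the nearest arrays.

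Chromatin regulators lay mostly below 0, with 19 of 22 measured genes negative, 1 fall and 0 rises. Their median was -0.19, against -0.015 over all genes. The fall was that of NCOA1, a histone acetyltransferase that coactivates nuclear receptors. NCOA1 had 9.90, 10.04 and 10.15 in exposed skin, against 10.61, 10.40 and 10.43 in control skin (log2 difference -0.45, SE 0.088, adjusted p = 0.00134). Its other 5 probe sets measured between -0.57 and -0.27, 1 of them past the threshold (-0.54, adjusted p = 0.00354), and the call stood whichever array was left out but not in the fit of the 4 h arrays alone (adjusted p = 0.294). Of 24 interferon response genes 0 passed, with a median of -0.048, and IRF7, with the smallest p, had 8.90, 9.46 and 9.68 in exposed skin, against 8.33, 9.24 and 9.15 in control skin, with overlapping groups. ISG15 differed by 0.86 (adjusted p = 0.901), and MX1 and RSAD2 measured 0.05 and -0.15.

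Markers of leukocytes had 0 calls at 4 h. With 1.48% of all 6765 genes higher and 0.429% lower, 0 calls in lists this short say little about these cells. Of 12 measured neutrophil markers 0 passed, and the mean over them was 7.78, 7.83 and 7.76 in exposed skin, against 7.55, 7.70 and 7.79 in control skin, with overlapping groups. Monocyte and macrophage markers averaged 9.52, 9.24 and 9.34 in exposed skin, against 9.34, 9.03 and 9.58 in control skin, and 0 of 11 passed. Lymphocyte markers averaged 7.62, 7.10 and 7.67 in exposed skin, against 7.43, 7.06 and 7.69 in control skin, and 0 of 11 passed. S100A8 and ELANE, which are abundant in neutrophils, measured -0.057 and 0.13, CD14 of monocytes -0.03 and CD3E of T cells 0.12. Likewise 0 genes passed among 16 fibroblast and dermal matrix, 9 smooth muscle and pericyte, 13 adipocyte, 7 melanocyte, 2 mast cell, 10 gland and 3 erythrocyte markers. In these lists the genes with the smallest p were COL5A2, TAGLN, ADIPOQ, MITF, KIT, FADS2 and AHSP, with differences of -0.36, 0.29, 0.35, -0.44, -0.19, 0.15 and 0.10. The second probe sets of COL5A2, MITF and FADS2 had the opposite sign, at 0.043, 0.19 and -0.11, none past the threshold. The 22 skeletal muscle genes had a median difference of 1.23 with 0 past the threshold, against -0.25 without control replicate 2. Of the hair follicle list 0 genes could be measured.

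Probe sets without a gene name made up 130 of the 266 higher and 51 of the 82 lower. The largest rise of all belonged to one of them, Ssc.9461.1.A1_at, with 10.3, 11.7 and 11.2 in exposed skin, against 7.28, 7.94 and 7.60 in control skin (log2 difference 3.47, SE 0.49, adjusted p = 1.10e-05). Ssc.23994.1.A1_at differed by 2.81. The largest falls of all were those of Ssc.2664.1.S1_at, by -1.16, and Ssc.12682.1.A1_at, by -1.06 (adjusted p = 0.0307 and 0.000954).

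Against the sham, exposed skin of 4 h had 135 higher (0.563%) and 65 lower (0.271%) probe sets. The sham array was taken to vary like the other groups, and the fit of the 4 h arrays alone left 5 higher and 1 lower. Without exposed replicate 1 the count was 132 instead of 200. Of the 100 higher genes 98 had all 3 exposed arrays above the sham, and of the 29 lower genes all had them below it. Over all 6765 genes these patterns held in 29.1% and 33.7%, and the called genes were chosen by a difference of the same exposed arrays. The exceptions were PHLDA3 and SFN, where the sham read 10.16 and 11.71, above the lowest exposed value of each gene. SFN had 11.81, 11.67 and 12.36 in exposed skin, and PHLDA3 had 10.32, 10.02 and 10.18. Control minus sham gave 1 probe set past the threshold.

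The response of 4 h was then set against those of the other times. At 1 h exposed minus control gave 99 higher (0.413%) and 189 lower (0.788%) probe sets, and at 2 h it gave 81 (0.338%) and 13 (0.0542%). The calls at 24 h came to 3462 higher (14.4%) and 3045 lower (12.7%). At 48 h they were 1401 (5.84%) and 986 (4.11%), and 72 h had 1296 (5.4%) and 1021 (4.25%). Of the 266 probe sets higher at 4 h, 48 were also among the higher calls of 1 h, 69 among those of 2 h, 153 among those of 24 h, 62 among those of 48 h and 61 among those of 72 h. They were 18.0%, 25.9%, 57.5%, 23.3% and 22.9% of the calls of 4 h, and 48.5%, 85.2%, 4.42%, 4.43% and 4.71% of those of the other time. Of the 82 lower at 4 h, 12, 5, 51, 19 and 25 were called lower at these times. Opposite calls numbered 0 at 1 and 2 h. At 24 h 2 of the higher and 3 of the lower were called the other way, at 48 h 6 and 1, and at 72 h 5 and 0. The arrays of 1 and 24 h, of 2 and 48 h, and of 4 and 72 h were processed in 3 different periods, so of the differences from 4 h only that of 72 h lies within 1 period, and in the others time and processing cannot be told apart.

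Against 2 h, 0 of 23999 probe sets passed in the test of the difference in response (limma), and 0 with the block. At an unadjusted p under 0.05 there were 395, and 691 with the block. Each is a smaller share than the 0.05 that no difference at all would give on average. Of the probe sets higher at 4 h 98.9% were above 0 at 2 h, with a median of 0.51 there against 0.90. Of those lower at 4 h 98.8% were below 0 at 2 h, with a median of -0.26 against -0.49. These probe sets were chosen by their difference at 4 h. Without exposed replicate 1 or 2 of 4 h the count past the threshold against 2 h was 1. Against 1 h, a comparison added after the data were seen, the response at 4 h was higher in 44 probe sets (0.183%) and lower in 1 (0.00417%). IL6 led these genes, at 3.16 at 4 h against 0.26 at 1 h (difference 2.91, SE 0.52, adjusted p = 0.00363). PHLDA2 was at 2.49 at 4 h against 0.62 at 1 h (difference 1.87, adjusted p = 0.00133). CDKN1A was at 1.35 against -0.039 (difference 1.39, adjusted p = 0.00133), the value at 1 h not being past the threshold. PPRC1, a coactivator related to PGC-1, was at 1.31 against -0.17, and PIM3, a survival kinase, at 1.31 against -0.17 (differences 1.48 and 1.475, adjusted p = 0.00133 and 0.041). The other, dimmer PPRC1 probe set differed by 0.24 at 4 h without passing (adjusted p = 0.4715). FOS and EGR1 were at 2.92 and 2.54 at 4 h against 2.85 and 2.54 at 1 h, and neither difference passed (adjusted p = 0.9995 and 0.9996). Without exposed replicate 1 or 3 or control replicate 1 or 2 of 4 h, the count of differences from 1 h was 22, 18, 19 or 27.

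By 24 h the response was higher than at 4 h in 1684 probe sets (7.02%) and lower in 884 (3.68%). The lower count was 1403 with the block, 1340 in a fit that held the muscle score as a covariate, and 560 without exposed replicate 3 of 4 h. The median exposed minus control difference of the 22 skeletal muscle genes was -3.35 at 24 h against 1.23 at 4 h, and the part of muscle in this comparison was not tested further. PPBP, a platelet chemokine, was at 5.89 at 24 h against -0.045 at 4 h, ARG1, the arginase of the epidermis and of myeloid cells, at 6.06 against 0.56, and TNC at 3.91 against 0.11. CXCL8 was at 6.29 at 24 h against 1.95 at 4 h (difference 4.35, SE 0.99, adjusted p = 0.00268), with the same limit on its control signals at 4 h. Of the genes with a lower response at 24 h, CALML5, an epidermal calcium-binding protein, was at -3.44 at 24 h against -0.48 at 4 h, the keratin KRT2 at -2.75 against 0.036, and the serpin SERPINB7 at -3.69 against -0.50. None of these 3 passed at 4 h. Among the rises of 4 h, PHLDA2 and EGR1 were at 0.55 and 0.46 at 24 h, both lower than at 4 h by the test of the difference (-1.94 and -2.08, adjusted p = 5.08e-05 and 0.0317). HSP70.2 and SFN also had a lower response at 24 h (-1.12 and -1.59, adjusted p = 0.00111 and 0.000526), while PCNA had a higher one (1.11, adjusted p = 0.000224).

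At 72 h, processed in the same period as 4 h, the response was higher than at 4 h in 344 probe sets (1.43%) and lower in 208 (0.867%), against 659 and 413 with the block, whose same-numbered arrays correlated at 0.309 to 0.358 at 72 h. Fitted on the arrays of this period alone, 166 were higher and 148 lower. KRT1 was at -3.28 at 72 h against -0.13 at 4 h (difference -3.15, adjusted p = 1.87e-06), and KRT10 at -2.88 against -0.12 (difference -2.76, adjusted p = 6.9e-06). The rises of IER5, PHLDA2, PPRC1, ADAMTS1 and HSP70.2 at 4 h were each above the response at 72 h by this test (72 h minus 4 h -1.26, -2.16, -1.53, -1.43 and -1.50). Without exposed replicate 3 of 4 h the response at 72 h was higher in 180 and lower in 114 probe sets. Without control replicate 3 of 4 h it was higher in 211, and no array of 72 h was left out.

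**Figure D5:**
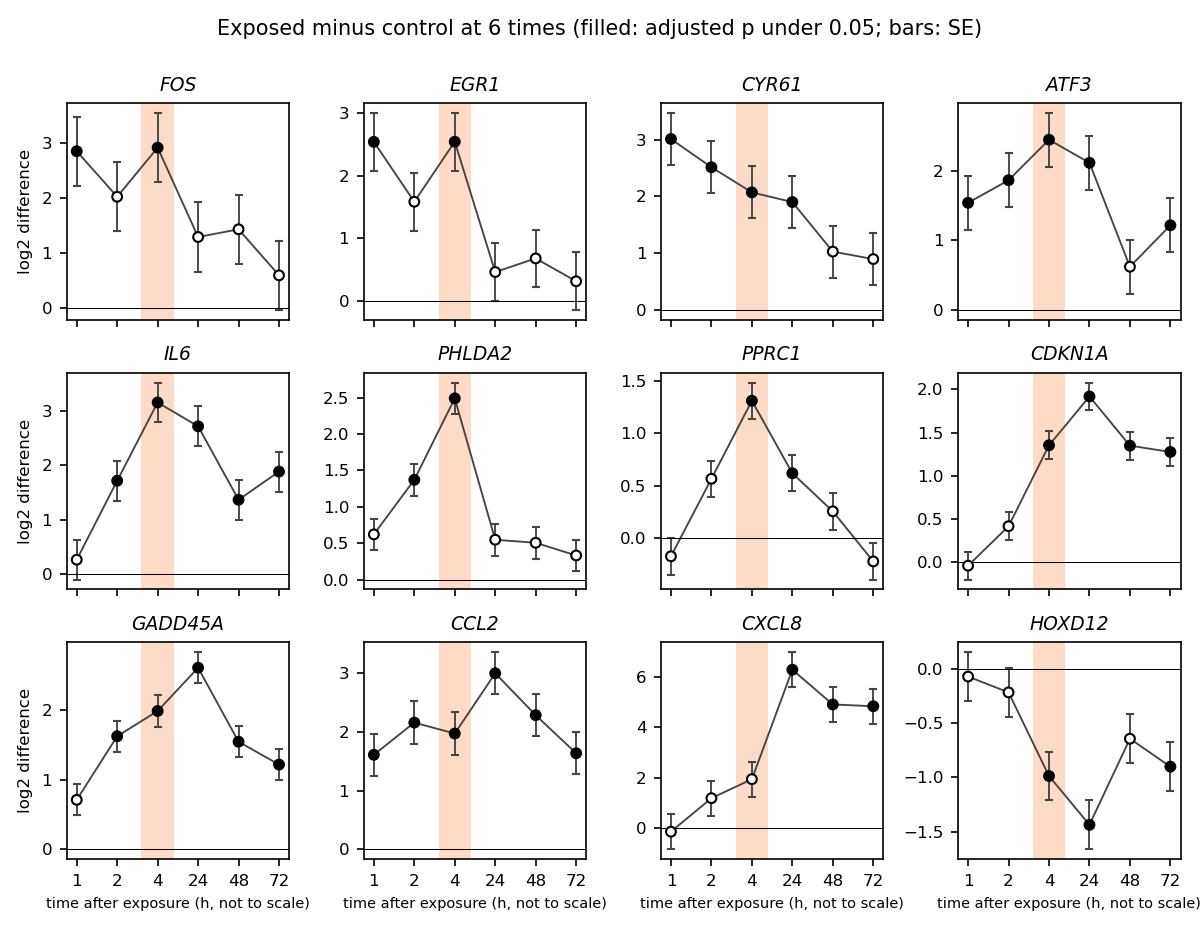
Exposed minus control log2 difference (y axis, bars are SE) of 12 genes at 6 times after exposure (x axis, not to scale), with 4 h shaded and filled points past the threshold. IL6, PHLDA2 and PPRC1 have their highest of the 6 values at 4 h, while GADD45A, CCL2, CDKN1A and CXCL8 have theirs at 24 h.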

How the data were processed

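Skin of 63 pig biopsies was measured on Affymetrix Porcine Genome arrays. The deposited values are log2 signals that the authors made with RMA and Partek, per the submitters' processing notes, whose versions are not given in the sources used here. Of 24123 probe sets, 124 array controls were left out. Names came from the platform annotation, in which 10069 probe sets have 1 symbol, 198 have several and 13732 are not listed, and 9961 were matched to RefSeq. A gene was represented by its probe set with the highest mean over all arrays.

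One limma model (limma 3.58.1, R 4.3.3) with 27 groups was fitted to all 63 arrays, and p-values were adjusted over 23999 probe sets. The model was also run on simulated arrays with independent noise and no pairs, which cannot show how it performs on paired arrays. Named were the 12 genes with the largest rises and falls past the threshold, up to 4 called members of each list, or the one with the smallest p, and 5 genes per direction of each difference between times. Genes beyond this rule complete a list or were chosen after their values were seen. The comparison, its genes and the lists were chosen with earlier results of these data known.

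Values were fitted without a block unless one is named, and the block pairs each exposed array with the control array of its number. At 4 h deviations from the group means correlated at 0.529 to 0.588 within the 3 pairs and at -0.434 to -0.114 across numbers. Deviations from the mean of 3 arrays sum to 0, so the values across numbers are not separate evidence of pairing. By the values within pairs, the numbers were taken to pair the samples of 4 h. All 3 same-numbered pairs correlated above 0.1 at 1 and 72 h too, but not at 2 h (-0.378 to 0.624), 24 h (-0.131 to 0.283) or 48 h (-0.345 to 0.124), where the block rests on the number alone. Labels do not state whether a number is an animal. Alternatives changed the normalisation, the samples, the prior, the filter and the block. Where a single array was left out, it was an exposed or control array of 4 h. The fit of the 4 h arrays alone with the block, and the comparison with 1 h, were added after the data were seen.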

Additional observations from a re-analysis of the deposited data

Results flagged for a closer look

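The response to sulfur mustard, exposed minus control, differed between times in the tests of the difference itself. At 4 h against 1 h 45 probe sets differed, and IL6 (2.91), PHLDA2 (1.87), PPRC1 (1.48), PIM3 (1.475) and CDKN1A (1.39) had a higher log2 response at 4 h.

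At 24 h against 4 h 2568 probe sets differed. The response at 24 h was higher for PPBP (5.93), ARG1 (5.51), CXCL8 (4.35), TNC (3.80) and CYP2C91 (3.45). It was lower for SERPINB7 (-3.18), CALML5 (-2.96), SULT1E1 (-2.82), KRT2 (-2.79) and STMN2 (-2.50).

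At 72 h against 4 h 552 probe sets differed. The response at 72 h was higher for ARG1 (4.63), PPBP (4.55), TNC (2.98), MMP1 (2.96) and SLC11A1 (2.58), and lower for KRT1 (-3.15), STMN2 (-3.004), KRT10 (-2.76), SULT1E1 (-2.53) and CALML5 (-2.38).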

How the results depend on the processing

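The count of probe sets past the threshold was 348. Other fits gave counts of their own, 606 with the replicate block that pairs same-numbered arrays, 60 on the 4 h arrays alone and 144 on these with the block, while 110 of the 348 had a log2 difference of at least 1. Leaving out 1 array gave 218 to 598. The block gave 1072 instead of 552 differences from 72 h and changed no other total of differences between times by over 1.5 times. No paired analysis was possible for exposed minus sham because the sham is another animal. For 4 h minus 2 h the count was 0 to 1 when 1 array was left out, and for 4 h minus 1 h 18 to 38, or 26 at a log2 difference of at least 1, which left 770 at 24 h, 255 at 72 h and 109 against the sham. Arrays of the same period gave 314 at 72 h and 109 against the sham, and the 4 h arrays alone 6 against the sham. Without 1 array of 4 h these counts were 294 to 601 at 72 h and 132 to 157 against the sham. The calls among list members numbered 54, against 16 on the 4 h arrays alone and 35 on these with the block, which need not be among the 54. The sign of 6 genes that did not pass changed without 1 array: TNC (-0.092 to 0.30), PPBP (-0.11 to 0.024), TPM2 (-0.27 to 1.00), KRT2 (-0.061 to 0.16), SLC11A1 (-0.012 to 0.38) and CYP2C91 (-0.54 to 0.066). Of 57 called named genes the 4 h arrays alone ended 42 calls and arrays of the same period 16. Renormalisation, the muscle score as covariate and another prior ended 3, 2 and 2, and leaving out dimmer probe sets ended 0 of 43. The cause of these changes was not tested.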

Other observations

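Several rises lay outside the lists and were chosen, with the families counted beside them, after their values were seen. The family counts of this section are to be read beside the 1.48% of all 6765 genes that were higher and the 0.429% that were lower. NOP56, a core protein of the particles that methylate ribosomal RNA, had 11.04, 10.82 and 10.89 in exposed skin, against 9.91, 9.69 and 9.88 in control skin (log2 difference 1.09, SE 0.10, adjusted p = 3.34e-10). Of 6 measured NOP genes of the nucleolus 2 rose, the other being NOP2 with 0.45 (adjusted p = 0.000742), and the family median was 0.39. EIF4A1, the RNA helicase that unwinds mRNA for translation, differed by 1.02 (adjusted p = 1.81e-08) and was the 1 of 11 measured EIF4 genes that rose. ODC1, ornithine decarboxylase of polyamine synthesis, had 11.39, 11.05 and 11.19 in exposed skin, against 9.75, 9.67 and 9.85 in control skin (log2 difference 1.45, SE 0.17, adjusted p = 2.08e-07). GNL3, or nucleostemin, and WDR74, a ribosome assembly factor, differed by 0.71 (adjusted p = 0.00109) and 0.76 (adjusted p = 8.9e-05). Of 10 measured subunits of RNA polymerases I and III 0 passed.

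Among 11 measured SRSF splicing factors 3 rose and 0 fell, with a median of 0.18. SRSF7 had 11.90, 11.66 and 11.85 in exposed skin, against 10.96, 10.82 and 10.83 in control skin (log2 difference 0.94, SE 0.12, adjusted p = 1.57e-06). SRSF6 differed by 0.90 (adjusted p = 4.42e-05) and SRSF2 by 0.56 (adjusted p = 0.00387). In the HNRNP family, whose members also bind nascent RNA, 1 of 17 rose. Among measured KLF factors 1 of 8 rose, and among PIM kinases 1 of 2. GADD45B and GADD45G, the relatives of GADD45A, differed by 1.34 (adjusted p = 0.00133) and 1.32 (adjusted p = 0.0172).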
